A study of Saccharomyces cerevisiae with 16 samples.

Results

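The genes described here carry names given to protein subunits of the mitochondrial ribosome of budding yeast (Saccharomyces cerevisiae). Members were the genes whose array probe set carries 1 symbol made of MRPL, MRPS, MRP or RSM and a number, leaving out MRP8, which is not a subunit. The rule used names only and no measured value. It found 65 of 5449 S. cerevisiae genes on the array, 37 of the large and 28 of the small subunit, each with 1 probe set specific to its gene. A further gene name in the R64 assembly of RefSeq, MRP35, met the rule and was not analysed here. The names matched the uniform ribosomal nomenclature in RefSeq, in which u marks proteins found in all ribosomes, b those shared with bacteria and m those particular to mitochondria. By these letters 27 members were universal, 13 bacterial and 24 mitochondrial. RSM22 had no such name and was counted with the small subunit by its symbol alone, which does not show that it is a subunit.

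The mitochondrial ribosome makes the few proteins that mitochondrial DNA encodes, most of them core subunits of the respiratory chain and the ATP synthase. Nearly all of its proteins are encoded in the nucleus, transcribed by RNA polymerase II, translated in the cytosol and imported. The large subunit forms peptide bonds and holds the exit tunnel of the new chain, while the small subunit binds and decodes the messenger RNA.

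The study moved TFIID, a general transcription factor of RNA polymerase II, out of the nucleus and asked how transcription responded. MATalpha cells of W303 background carried the anchor RPL13A-2xFKB12::TRP1 and the tag TAF4-FRB::HYGRO, with tor1-1 and fpr1::NAT, and the controls carry every one of these alleles too. In this anchor-away design rapamycin ties the FRB-tagged Taf4 to the ribosomal protein anchor, which is exported from the nucleus, and DMSO is the vehicle. Treatment lasted 30 min, after which 4-thiouracil marked new RNA for 6 min. Total RNA gave the arrays labelled steady-state, and the marked RNA purified from it gave those labelled newly synthesized. The protocol states 1 µg/mL rapamycin and the design text 5 µM. Labelled wild-type fission yeast (Schizosaccharomyces pombe) served as a spike-in at 1 part to 3 parts S. cerevisiae cells. The 8 arrays labelled Taf4 were used, 2 in each of 4 groups of fraction and treatment. No untagged strain with rapamycin was analysed here, so the drug and the loss of Taf4 cannot be told apart. The labels do not say that replicates were separate cultures, so the spread behind the p-values may be technical.

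The deposited table held 16 columns of 10 distinct arrays. 6 columns labelled Taf5 equalled a column labelled Taf4 divided by 5, within 0.001 signal units, and in each pair the fraction label was swapped. Strain and fraction are therefore given as labels throughout. Values are log2 intensities, shifted so that the median of all S. pombe probe sets is equal on each array. A lower S. cerevisiae value can stand for less RNA per cell or for fewer S. cerevisiae cells per S. pombe cell, which cannot be told apart. The S. cerevisiae median lay 1.80 and 2.13 above that of S. pombe on the steady-state arrays with DMSO, and between -0.25 and 0.88 on the other 6. TAF4 mRNA changed by -1.35 (log2) with rapamycin in the newly synthesized label and by -1.50 in the steady-state label, and mRNA levels are no check on nuclear export of the protein.

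The members' levels on each array come first. In the newly synthesized label their median level was 9.13 and 9.28 (log2) with DMSO and 8.61 and 8.55 with rapamycin. In the steady-state label it was 10.31 and 10.62 with DMSO and 9.31 and 9.63 with rapamycin. Neither pair of rapamycin arrays overlapped its DMSO pair. Levels of single genes were not set against each other. Where median levels of sets of genes are compared below, different probe sets are compared.

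**Figure D1:**
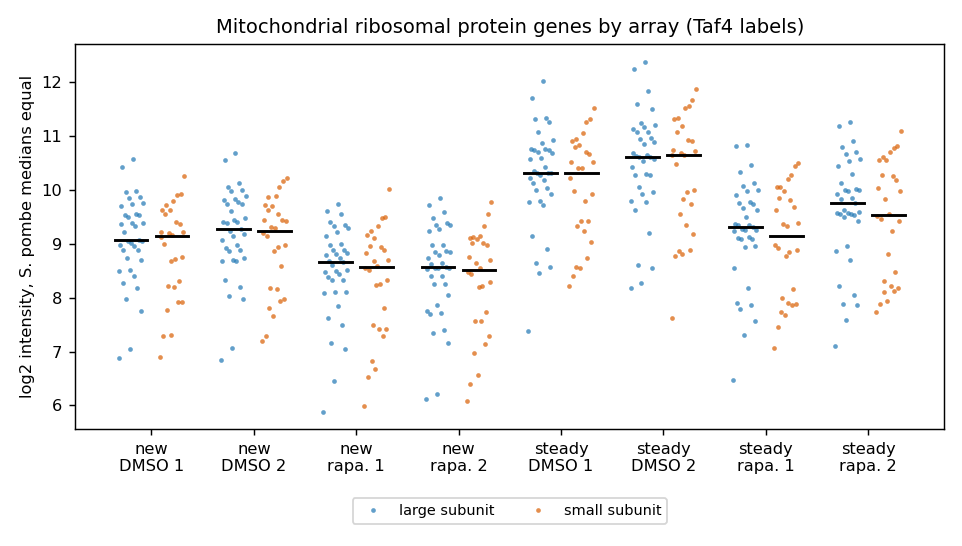
Log2 intensity of each member gene (y axis, S. pombe medians equal) on the 8 arrays labelled Taf4 (x axis, new for newly synthesized, steady for steady-state, rapa. for rapamycin). Points are genes of the large and small subunit and black bars their medians. Member medians are 9.13 and 9.28 with DMSO and 8.61 and 8.55 with rapamycin in the newly synthesized label; with equal S. cerevisiae medians the members' median change is 0.23 in that label and 0.31 in the steady-state label.

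In the newly synthesized label, 53 of 65 members were lower with rapamycin, 0 were higher and 12 did not pass at a limma adjusted p under 0.05. Of all genes tested, 79.4% were lower and 1.79% higher by the same rule, so the members' share of 81.5% was near the background. Their median change was -0.59 (log2), a 1.51-fold lower level, with a range of -1.05 to -0.22 and standard errors of 0.21 to 0.24, against -0.78 for all genes. With S. cerevisiae medians made equal instead of S. pombe medians, the members' median was 0.23. Then 0 members were lower and 9 higher (8.92% and 15.6% of all genes). That scaling by design brings the median of all genes near 0, here 0.046. On the values as deposited the members' median was -0.21, so the direction depended on the scaling chosen. In all 65 members both rapamycin arrays lay below both DMSO arrays, as in 92.9% of all genes. The count of calls was sensitive to single arrays. It was 23 (35.4% of members, against 54.6% of all genes) without DMSO replicate 2, 29 (44.6% against 61.6%) without rapamycin replicate 1, 25 (38.5% against 64.0%) without rapamycin replicate 2 and 37 (56.9% against 70.7%) without DMSO replicate 1. On the values as deposited it was 17 (26.2% against 48.5%). In these settings the members' share lay below that of all genes. 18 members (27.7%) were called in the full data and without each array in turn, against 50.5% of all genes.

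Among large subunit genes, 30 of 37 fell (81.1%, against 79.4% of all genes) and 7 did not pass, with a median of -0.59. MRPL1 (YDR116C, chromosome IV, 682724 to 683581) encodes uL1m of the mobile L1 stalk. Its levels were 8.27 and 8.32 with DMSO and 7.15 and 7.35 with rapamycin. The groups were well apart, and MRPL1 fell 2.06-fold (log2 change -1.05, SE 0.22, limma adjusted p = 0.000132), the largest fall of any member in this label. MRPL50, which encodes the bacterial-type protein bL9m, had 9.50 and 9.81 with DMSO and 8.81 and 8.55 with rapamycin. It fell 1.97-fold, followed by MRPL37 (mL54, 1.87-fold) and MRPL20 (mL58, 1.84-fold), both of proteins particular to mitochondria. In these 4 genes the call held without each array in turn. At the other end, MRPL16, which encodes uL16m near the tRNA sites, had 8.95 and 9.06 with DMSO and 8.83 and 8.74 with rapamycin. The rapamycin arrays were the lower ones by a small margin, and the change of -0.22 did not pass (limma adjusted p = 0.329). MRPL51 (mL43, -0.33), MRPL28 (mL40, -0.41) and MRPL27 (mL41, -0.41) also did not pass, with limma adjusted p-values of 0.175, 0.0916 and 0.0829.

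Among small subunit genes, 23 of 28 fell (82.1%, against 79.4% of all genes) and 5 did not pass, with a median of -0.61. RSM22 (YKL155C, chromosome XI, 159456 to 161342) encodes a methyltransferase-like protein and was placed in the small subunit by its symbol alone. Its levels were 6.89 and 7.19 with DMSO and 5.99 and 6.09 with rapamycin, a 2.00-fold fall (SE 0.22 on the log2 scale, limma adjusted p = 0.00021). MRP4, which encodes uS2m, had 7.92 and 7.81 with DMSO and 6.82 and 6.98 with rapamycin and fell 1.95-fold. RSM26, which encodes a protein with a superoxide dismutase fold (mS42), fell 1.88-fold, and RSM25 (mS23) fell 1.87-fold. The DMSO and rapamycin arrays did not overlap in any of these genes, and each call held without each array in turn. RSM27 (mS33) had 8.68 and 8.93 with DMSO and 8.52 and 8.44 with rapamycin. That change of -0.32 did not pass, and neither did RSM18 (bS18m, -0.34), MRP13 (mS44, -0.34) or MRPS17 (uS17m, -0.35), with limma adjusted p-values of 0.149 to 0.19.

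Proteins that line or surround the exit tunnel were read from the same fit by their roles. MRPL4 (uL29m) fell 1.76-fold, MRPL40 (uL24m) 1.70-fold, MRP20 (uL23m) 1.44-fold and MRPL22 (uL22m) 1.39-fold. In the stalk base that receives translation factors, MRPL19 (uL11m) fell 1.58-fold and MRPL11 (uL10m) 1.43-fold. In the decoding region of the small subunit, MRPS12 (uS12m) fell 1.54-fold and MRPS5 (uS5m) 1.48-fold. MRPL32, whose product is matured by a protease of the inner membrane before the large subunit assembles, fell 1.68-fold. These roles were picked after values were seen, and all of these changes lay between -0.82 and -0.47 (log2). Each of the 9 calls was lost without at least 1 newly synthesized array, with limma adjusted p-values up to 0.053 in MRPL4, 0.0695 in MRPL19, 0.0711 in MRPL40 and MRPL32, 0.103 in MRPS12, 0.138 in MRP20, 0.223 in MRPS5, 0.226 in MRPL11 and 0.371 in MRPL22. MRP20 and MRPL11 were lost without any 1 of the 4 arrays, MRPL22 without any 1 but DMSO replicate 1, and MRPL4 and MRPL32 without rapamycin replicate 1 alone.

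In the steady-state label, 59 of 65 members were lower with rapamycin, 0 were higher and 6 did not pass at that threshold. The shares over all genes were 86.8% lower and 1.42% higher. The members' median was -0.96 (log2), a 1.95-fold lower level, with a range of -1.82 to 0.13, against -1.17 for all genes. With equal S. cerevisiae medians the median was 0.31, with 1 member lower (1.54%) and 31 higher (47.7%), against 18.1% and 32.0% of all genes. Both rapamycin arrays lay below both DMSO arrays in 63 members and overlapped them in 2, MRPL23 and MRPS5, against 91.5% of all genes below. 48 of the 59 calls held without each array in turn, 73.8% of members against 78.2% of all genes, and the count then ranged from 50 to 62. Rapamycin replicate 1 was lower than replicate 2 in 63 of 65 members, by a median of 0.46, and the 65 genes' median change from the DMSO mean was -1.14 in replicate 1 and -0.76 in replicate 2.

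Of the large subunit, 32 of 37 fell (86.5%, against 86.8% of all genes) and 5 did not pass. MRPL37 (YBR268W, chromosome II, 741299 to 741616) had 10.58 and 11.13 with DMSO and 9.08 and 9.57 with rapamycin. It fell 2.89-fold (log2 change -1.53, SE 0.23, limma adjusted p = 2.72e-07), the largest fall of this subunit. MRP7 (bL27m) fell 2.83-fold, MRPL49 (bL21m) 2.77-fold and MRPL33 (uL30m) 2.74-fold. The counterpart of bL27m in bacteria reaches toward the peptidyl transferase centre. MRPL23, which encodes uL13m, stood apart, with 10.73 and 10.88 with DMSO and 10.83 and 10.90 with rapamycin. Those groups overlapped, and the change of 0.06 did not pass (limma adjusted p = 0.786). MRPL16 (-0.28), MRPL31 (mL60, -0.35), MRP49 (mL61, -0.41) and MRPL51 (-0.47) did not pass either, with limma adjusted p-values of 0.213, 0.122, 0.0758 and 0.0526.

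Of the small subunit, 27 of 28 fell (96.4%, against 86.8% of all genes). MRP4 (YHL004W, chromosome VIII, 99219 to 100403) had 9.43 and 9.82 with DMSO and 7.68 and 7.93 with rapamycin. Its 3.53-fold fall (log2 change -1.82, SE 0.22, limma adjusted p = 6.99e-09) was the largest of any member in either label. MRP1 (mS43), which like RSM26 has a superoxide dismutase fold, fell 2.64-fold, RSM26 fell 2.58-fold and MRPS35 (mS45) fell 2.36-fold. MRPS5, which encodes uS5m at the messenger RNA entry site, was the gene that did not pass. Its levels were 8.22 and 7.63 with DMSO and 8.0 and 8.11 with rapamycin, a change of 0.13 (limma adjusted p = 0.591). The DMSO replicates of MRPS5 differed by 0.59 and the rapamycin arrays lay between them. MRPS18 (uS11m) fell 1.51-fold, MRPS17 1.53-fold and RSM7 (uS7m) 1.57-fold. MRPS17 did not pass without DMSO replicate 2 or without rapamycin replicate 1 (limma adjusted p up to 0.19).

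**Figure D2:**
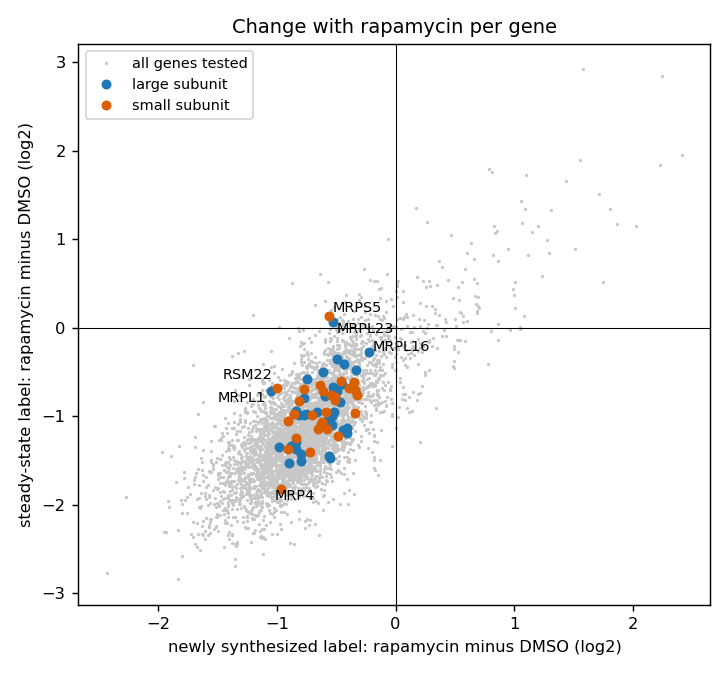
Change with rapamycin (log2) of each gene in the newly synthesized label (x axis) and in the steady-state label (y axis), with member genes coloured by subunit over all 4359 genes tested in grey. All 65 members lie left of 0 on the x axis, and MRPS5 (0.13) and MRPL23 (0.06) lie above 0 on the y axis; with equal S. cerevisiae medians the members' medians are 0.23 and 0.31.

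50 members were lower in both labels, against 75.7% of all genes. MRPS5, MRPL23 and MRPL31 were called lower in the newly synthesized label alone, 9 in the steady-state label alone, and MRPL16, MRPL51 and MRP49 in neither. Of the 4359 genes tested 3462 were lower in the newly synthesized label, 3785 in the steady-state label and 3299 in both. Nothing about the members was read from this split. Being called in 1 label is no test of a difference, so the change in the newly synthesized label minus that in the steady-state label was tested in the same fit. By limma 0 members differed at an adjusted p under 0.05, while 0.138% of all genes had a more negative and 1.19% a more positive change in the newly synthesized label. 10 members (15.4%) had an unadjusted p under 0.05, against 25.7% of all genes. MRPS5 (-0.69, limma adjusted p = 0.171) was the negative one, and MRPL49 (0.91), MRPL33 (0.89), MRP4 (0.85), MRPL28 (0.79), MRP51 (0.73), MRPL27, MRPL38, MRP7 and MRP1 were positive, with the smallest limma adjusted p of 0.101 in MRPL33. The count depended on single arrays, with 13 of 65 members positive (against 25.2% of all genes) without steady-state rapamycin replicate 2, and 3 positive (4.62% against 17.4%) and 1 negative (1.54% against 0.367%) without steady-state DMSO replicate 1. It also depended on scaling, with 36 positive (55.4% against 46.0%) under a loess curve fitted to S. pombe signals and 2 negative (3.08% against 1.4%) with equal S. cerevisiae medians. With the replicate number as a block, which no label ties to a shared culture, 7 were positive (10.8% against 23.0%). Across the 65 members the changes in both labels had Pearson's r = 0.445 and Spearman's rho = 0.429, against 0.747 and 0.688 over all 4359 genes, as a description of genes measured on the same arrays.

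Large and small subunit genes were compared by their medians, with no test, since the members are not replicates. The medians differed by 0.02 in the newly synthesized label (-0.59 for large, -0.61 for small) and, as large minus small, by -0.09 in the steady-state label (-0.98 for large, -0.89 for small). Within arrays, the large minus the small subunit median was 0.01 and -0.03 in the steady-state DMSO arrays and 0.16 and 0.22 in the steady-state rapamycin arrays. It was -0.09 and 0.04 in the newly synthesized DMSO arrays and 0.10 and 0.06 in the rapamycin arrays. In both labels the rapamycin arrays had the higher values of this difference and did not overlap the DMSO arrays. The 2 measures therefore disagreed in sign in the steady-state label, where the median change was lower for large subunit genes while their array medians rose relative to those of the small subunit. No order of the subunits was read from them.

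The conservation classes were described in the same way. In the newly synthesized label all 8 bacterial-type large subunit genes fell, with a median of -0.82, against 13 of 15 universal (-0.56) and 9 of 14 mitochondrial genes of that subunit (-0.54). With 79.4% of all genes lower in this label and so few genes in a class, nothing about the classes was read from these counts. In the small subunit 4 of 5 bacterial-type (-0.55), 10 of 12 universal (-0.62) and 8 of 10 mitochondrial genes (-0.65) fell. In the steady-state label the large subunit medians were -1.18 for bacterial-type, -0.84 for universal and -1.03 for mitochondrial genes, and those of the small subunit -0.95, -0.70 and -1.02. The classes overlapped in both labels. MRPL39 (bL33m), one of the bacterial-type genes and the shortest member, had 10.57 and 10.68 with DMSO and 9.73 and 9.84 with rapamycin in the newly synthesized label, a 1.79-fold fall.

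**Figure D3:**
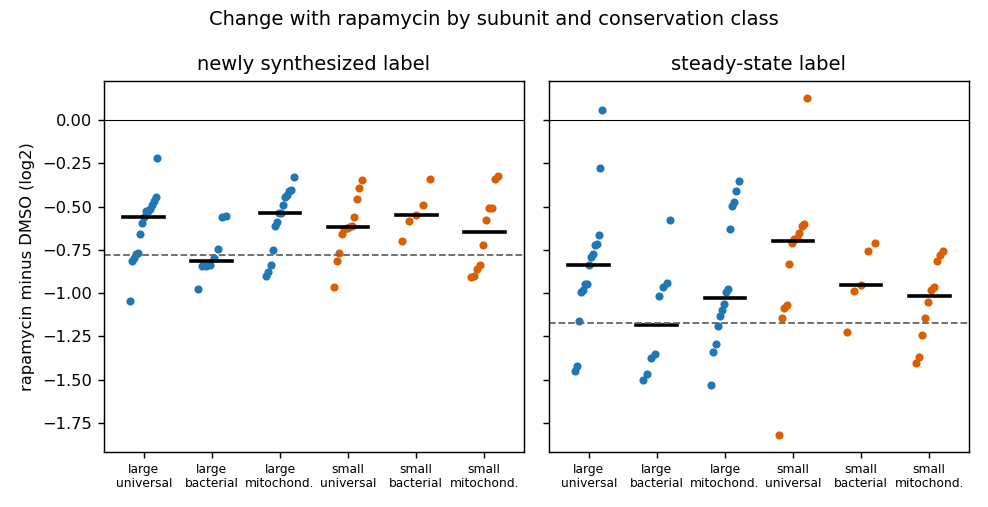
Change with rapamycin (log2, y axis) of member genes by subunit and conservation class (x axis), in the newly synthesized label (left) and the steady-state label (right). Points are genes, black bars class medians and the dashed lines the median of all genes tested (-0.78 and -1.17); the bacterial-type large subunit genes have medians of -0.82 and -1.18, and RSM22, with no class, is left out.

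Levels in the steady-state and newly synthesized labels were also compared within each treatment. With S. pombe medians equal, such a difference compares each gene with S. pombe RNA of the same fraction and is not an absolute amount. The S. pombe probe sets themselves were not even between fractions. With DMSO 584 of 1396 tested were lower and 362 higher in the steady-state label by limma, and with rapamycin 93 and 53. With DMSO, 60 of 65 members were higher in the steady-state label, 0 were lower and 5 did not pass by limma, and of all genes 83.1% were higher and 2.57% lower. The members' median of 1.26 (log2) was close to that of all genes, 1.27. It was -0.12 with equal S. cerevisiae medians. MRPL49 (8.97 and 9.18 newly synthesized, 10.93 and 11.24 steady-state) had the largest difference, 2.01, followed by MRPL38 (uL14m, 1.94), MRPL25 (mL59, 1.87) and MRP51 (bS1m, 1.82). MRP20, MRPL1, MRPL8, MRPS5 and RSM7 did not pass, with differences of -0.21 (MRPS5) to 0.31. With rapamycin 59 members were higher and 0 lower, against 71.5% of all genes higher and 1.1% lower, with a median of 0.91 (all genes 0.83, and -0.02 for members with equal S. cerevisiae medians). RSM22 had the largest difference there, 2.00, with 5.99 and 6.09 newly synthesized and 7.90 and 8.17 steady-state. MRPL25 (1.68), MRPS8 (uS8m, 1.63) and MRPL32 (1.51) followed.

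The spike-in offered the same family in a second species. 46 S. pombe probe sets carry the name of a member, and 43 passed the filter. Names alone were matched. The labels name no rapamycin for S. pombe. In the newly synthesized label 0 of the 43 changed by limma (0.0% of all S. pombe probe sets tested), 0 had an unadjusted p under 0.05, and their median change was 0.04. In the steady-state label 29 were higher with rapamycin and 0 lower, with a median of 0.72, against 32.4% higher and 21.9% lower among all S. pombe probe sets tested. Their median relative to all S. pombe probe sets was -0.28 and -0.41 in the steady-state DMSO arrays and between 0.35 and 0.55 in the other 6 arrays. S. pombe rsm19, for example, had 6.69 and 6.71 in the steady-state DMSO arrays and 8.84 and 8.39 in the steady-state rapamycin arrays (1.91, SE 0.16, limma adjusted p = 7.58e-06). In the newly synthesized label it had 8.65 and 8.67 with DMSO and 8.83 and 8.80 with rapamycin. The steady-state DMSO arrays were the low ones in rsm19, as in mrpl39 (change 1.89) and mrpl33 (1.57), while S. pombe mrps5 changed by -0.25 (limma adjusted p = 0.221). With each array left out in turn, 25 to 31 S. pombe genes were higher. The change in the newly synthesized label minus that in the steady-state label was negative by limma in 23 of the 43 and positive in 0, against 24.3% and 8.38% of all S. pombe probe sets.

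The S. cerevisiae gene had the lower change in 42 of 43 pairs in the steady-state label (median difference -1.55). It did so in 43 of 43 in the newly synthesized label (-0.63). Of all 4359 S. cerevisiae genes tested, 4182 and 4164 had a negative change in these labels. The medians of all S. pombe probe sets tested were 0.055 and -0.027. The order within pairs was thus that of the species at large, and nothing about the family was read from it. Scaling the arrays by the S. pombe probe sets with member names was an alternative added after seeing the data. The members' steady-state median was then -1.75 and all 65 members were lower by limma, as were 97.8% of all genes. The newly synthesized median was then -0.59, with 27 called lower (41.5%, against 65.3% of all genes).

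**Figure D4:**
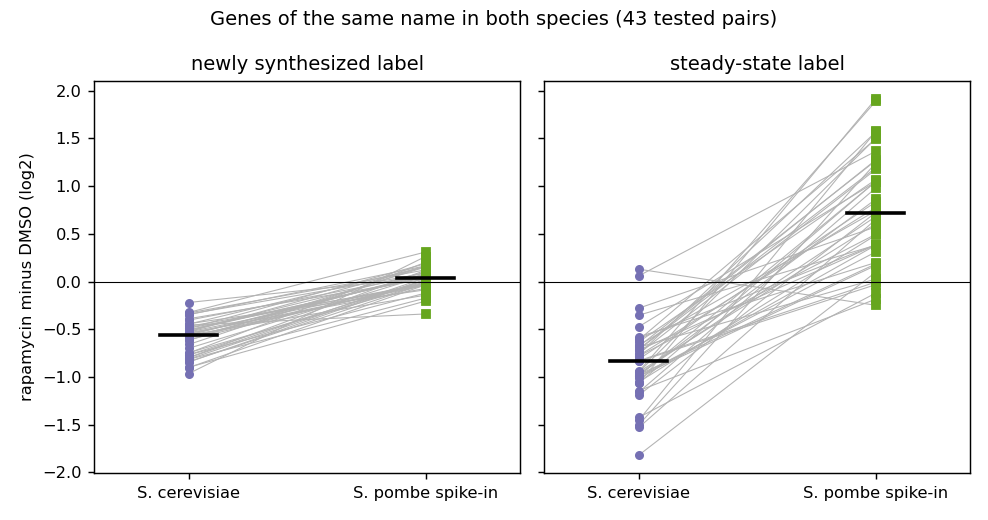
Change with rapamycin (log2, y axis) of 43 genes tested under the same name in S. cerevisiae (circles) and in the S. pombe spike-in (squares), joined by lines, in the newly synthesized label (left) and the steady-state label (right). Black bars are medians. The S. pombe medians are 0.04 and 0.72; 2 S. cerevisiae values lie above 0 in the right panel, and with equal S. cerevisiae medians the median of all 65 members is 0.31.

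The change of the S. pombe probe sets varied with the coding length (start to stop codon, introns included) of the S. cerevisiae gene of that name. In 22 pairs the S. cerevisiae length was 213 to 645 bases. Of their S. pombe probe sets 19 were higher with rapamycin by limma in the steady-state label (median change 1.06). In the 21 pairs of 654 to 1353 bases 10 were (median change 0.39). Among all S. pombe probe sets tested 32.4% were higher. Spearman's rho was -0.664 over the 43 pairs in the steady-state label and -0.172 in the newly synthesized label. Among the 65 S. cerevisiae members themselves rho between length and change was -0.154 in the steady-state and -0.301 in the newly synthesized label, and over all 4359 genes it was -0.393 and -0.121. These are descriptions over genes of the same arrays, in which length also ran with mean signal (rho = -0.676 over members). Lengths of the S. pombe genes were not used here, and the part of length or signal in these changes was not tested.

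Other genes of mitochondrial translation were set beside the members. Their counts stand against the 79.4% and 86.8% of all genes that were lower in the newly synthesized and steady-state labels. Of 13 tested mitochondrial ribosomal proteins under other names, such as IMG1 and MRX14, 9 fell in the newly synthesized label (median -0.62) and 10 in the steady-state label (-0.94). IMG1 fell 1.81-fold and MRX14 1.49-fold in the newly synthesized label, and MRX14 did not pass without any 1 of its 4 arrays (limma adjusted p up to 0.102). Of 14 tested genes from a list of mitochondrial translation factors 12 and 14 fell, with medians of -1.04 and -1.33. That list was broad and also held genes of ribosome assembly and RNA handling, such as MTG1, MRM1 and RMD9. TUF1, the elongation factor, fell 1.44-fold in the newly synthesized label, a call that did not hold without each array in turn. All 7 tested mitochondrial aminoacyl-tRNA synthetases fell in both labels (-0.98 and -1.59), among them MSY1 and MSW1 for tyrosine and tryptophan. Of 15 translational activators and factors of the mitochondrial RNA polymerase 12 and 14 fell (-0.84 and -1.24). Of 128 cytosolic ribosomal protein genes 63 and 29 fell, with medians of -0.46 and -0.32. The 8 protein genes of mitochondrial DNA looked for, VAR1 of the small subunit among them, had no probe set of that name in the annotation used here. MRP8, left out of the members, changed by -0.23 in the newly synthesized label (limma adjusted p = 0.313) and by -0.65 in the steady-state label (limma adjusted p = 0.00501). Differences between these lists were not tested.

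The members lie on 14 chromosomes. MRPS12 and RSM19 are next to each other on chromosome XIV (694361 to 694822 and 695052 to 695327) on the same strand, with 229 bases between them. Both encode small subunit proteins, and both changed by -0.62 in the newly synthesized label, calls that did not hold without each array in turn, with steady-state changes of -1.09 and -1.07.

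The size of the common change depended on the scaling. On the values as deposited the members' medians were -0.21 and -0.43 in the newly synthesized and steady-state labels, against -0.40 and -0.65 for all genes. Scaling by the brighter S. pombe probe sets gave -0.55 and -1.10, and a loess curve gave -0.57 and -1.44. The members' median lay 0.19 above that of all genes in the newly synthesized label and 0.21 above it in the steady-state label, a distance that a shift of whole arrays cannot alter. Where a setting can alter it, it was 0.18 and 0.10 under the loess curve, 0.16 and 0.17 with the lowest 40% of genes out, and from 0.14 (without rapamycin replicate 1) to 0.19 and from 0.20 to 0.25 without each array in turn. 47 members lay above the median of all genes in the newly synthesized label and 50 in the steady-state label. The members' median signal was 0.63 to 0.91 (log2) above that of all genes on these arrays. Over all genes Spearman's rho between mean signal and change was 0.319 in the newly synthesized and 0.361 in the steady-state label. Over members it was 0.357 and 0.15. The part of signal in the distance between members and all genes was not tested.

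**Figure D5:**
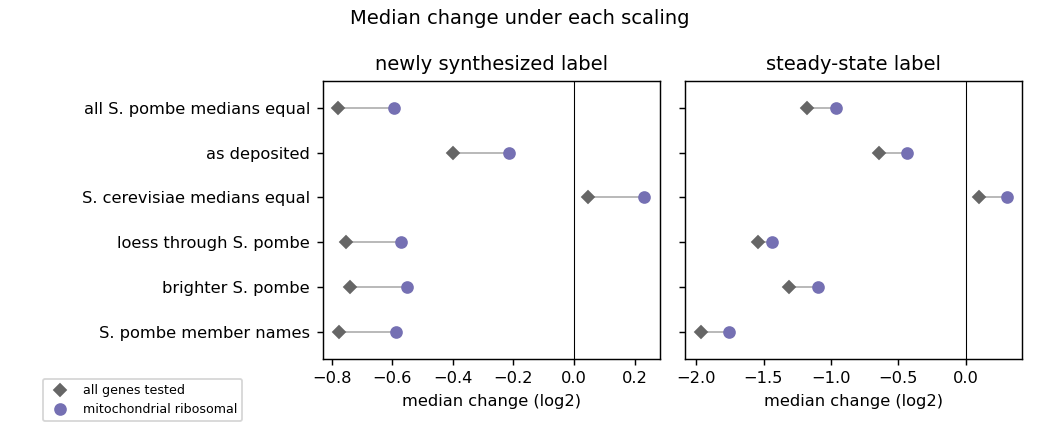
Median change with rapamycin (log2, x axis) of the 65 member genes (circles) and of all genes tested (diamonds) under 6 ways of scaling the arrays (y axis), in the newly synthesized label (left) and the steady-state label (right). The distance between members and all genes is fixed where whole arrays are shifted and is 0.18 and 0.10 under the loess curve; both medians lie above 0 only where the S. cerevisiae medians were made equal (0.23 and 0.31 for members).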

How the data were processed

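The deposited values are microarray intensity values on a linear scale, 1 per probe set of the Affymetrix Yeast Genome 2.0 array and sample; per the submitters' processing notes they come from Affymetrix Expression Console 1.4.1. How probes were summarised is not given in the sources used here. Of 10928 probe sets, 7244 had 1 gene symbol, 1 had several and 3683 had none in the annotation used here, and 5498 were matched to S. cerevisiae genes and 1746 to S. pombe. Gene positions are those of R64. Values were taken as log2, shifted to equal S. pombe medians, and each gene was read from its probe set with the highest mean. Genes in the lowest 20% by mean were removed, and all 65 members passed. limma 3.58.1 in R 4.3.3 (lmFit, eBayes) was fitted to the 8 arrays labelled Taf4 with 4 groups of 2 and 5 contrasts, two-sided, adjusted by Benjamini-Hochberg over 4359 genes. S. pombe probe sets went through the same fit. A single value compared between 2 and 2 arrays cannot reach an exact permutation p below 0.333, so only the fits across genes were used. The number of arrays limits the precision. The fit was tested on simulated data in which a small part of the genes changed. At an adjusted p under 0.05 it called 6.0% and 10.4% of changes of 0.5 (log2) in the newly synthesized and steady-state labels. Of changes of 1.0 it called 62.7% and 65.7%. In the data 79.4% and 86.8% of all genes were called lower in these labels. With so many calls the adjustment is less strict, so these simulated shares are no measure of the calls in the data. For the difference between the changes the fit to simulated data called 0.0% at 0.5 and 14.9% at 1.0, so differences of this size can be missed.

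Members named in full are the 4 lowest and 4 highest changes per subunit and depletion contrast and the 4 largest differences in the others; further members were picked by role after their values were seen. The members, lists and tests were chosen with earlier results of these data known. Alternatives were other scalings and filters, probe set means, an intensity trend, fits within 1 fraction, a block for replicate number, and fits without each array in turn.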

Additional observations from a re-analysis of the deposited data

Results flagged for a closer look

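In the S. pombe spike-in, 23 of the 43 tested probe sets that carry a member's name had a lower change with rapamycin in the newly synthesized label than in the steady-state label (limma interaction, adjusted p under 0.05), and 0 had a higher one. The test of the difference itself drew attention to them. Among all S. pombe probe sets tested 24.3% were lower and 8.38% higher in this test. The median difference was -0.73 (log2), and the count ranged from 17 to 26 when each array was left out.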

How the results depend on the processing

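The scaling moved the results most. On the values as deposited 17 members (26.2%, against 48.5% of all genes) were lower in the newly synthesized label, with a median of -0.21. In the steady-state label 36 were lower (55.4% against 68.3%) and 2 higher (3.08% against 5.94%), with a median of -0.43. The fraction medians were 0.83 with DMSO, with 1 member lower (1.54% against 8.33%), and 0.63 with rapamycin. With equal S. cerevisiae medians every one of the 4 medians changed sign, to 0.23, 0.31, -0.12 (DMSO fractions) and -0.018 (rapamycin fractions). In the newly synthesized label 0 members were lower and 9 higher (13.8%), against 8.92% and 15.6% of all genes. In the steady-state label 1 was lower (1.54%) and 31 higher (47.7%), against 18.1% and 32.0%. Between fractions 20 were lower (30.8%) and 14 higher (21.5%) with DMSO, against 37.6% and 22.7%. With rapamycin 8 were lower (12.3%) and 12 higher (18.5%), against 34.6% and 18.3%. In the difference between the changes 2 members were lower (3.08% against 1.4%). Under the loess curve the medians were -1.44 in the steady-state label, 1.94 between fractions with DMSO and 1.13 with rapamycin. Large minus small subunit was 0.13 and 0.066 between fractions with DMSO and with rapamycin. A positive difference between the changes was called in 36 members (55.4%, against 46.0% of all genes). The brighter S. pombe probe sets gave 1.59 between fractions with DMSO. Scaling by the S. pombe probe sets with member names gave 27 members lower in the newly synthesized label (41.5%, against 65.3% of all genes). The medians were then -1.75 in the steady-state label and 2.02 between fractions with DMSO. Positive differences between the changes were called in 52 members (80.0%, against 77.7% of all genes). With an intensity trend 2 members had a positive difference (3.08%, against 4.43% of all genes). With the lowest 40% of genes out the steady-state large minus small subunit median was -0.14. The cause was not tested.

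With equal S. cerevisiae medians 51 of 65 members changed sign in each label, and as deposited 6 did in the newly synthesized and 5 in the steady-state label. Among them in the newly synthesized label, as deposited and with equal medians, were MRP13 (0.041 and 0.49), MRPL16 (0.16 and 0.61) and MRPL51 (0.049 and 0.49). MRPS17 (0.032 and 0.48), RSM18 (0.038 and 0.48) and RSM27 (0.056 and 0.50) changed sign in both too. MRPL27 (0.41) and MRPL28 (0.42) were among the many that did so with equal medians alone. In the steady-state label MRP49 (0.12 and 0.86), MRPL16 (0.25 and 0.99) and MRPL31 (0.18 and 0.92) changed sign in both, as did MRPL15 and MRPL51. MRPS17 (0.66), MRPS18 (0.67), MRPS35 (0.027) and RSM7 (0.62) were among the many that did so with equal medians alone. MRPL23 was -0.76 under the loess curve, -0.076 with the brighter S. pombe probe sets, -0.73 with those of member names and -0.014 without steady-state DMSO replicate 1. MRPS5 was -0.008 with the brighter S. pombe probe sets, -0.66 with those of member names and -0.17 without steady-state DMSO replicate 2.

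Leaving out each array gave 23 to 58 members lower in the newly synthesized and 50 to 62 in the steady-state label, 0 to 13 positive and 0 to 1 negative differences between the changes, and a fraction median with rapamycin of 0.66 to 1.20. The large minus small subunit median then ranged from -0.12 to -0.044 in the steady-state label, from -0.086 to 0.001 between fractions with DMSO and from -0.03 to 0.037 with rapamycin. A group left with 1 array was assumed to vary like the others.

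The replicate numbers are shared between groups in the labels, and nothing says the number marks a shared culture. Deviations of same-numbered arrays correlated across genes at -0.02 to 0.18, a measure that cannot see a shift of whole arrays. The median over all genes of replicate 1 minus replicate 2 was negative in each group. It was -0.13 (DMSO) and -0.025 (rapamycin) in the newly synthesized label and -0.33 with either treatment in the steady-state label. Whether the number pairs the arrays cannot be told from these values. With the replicate number as a block 58 members were lower in the newly synthesized label (89.2%, against 86.4% of all genes). In the steady-state label 61 were lower (93.8% against 89.7%). A positive difference between the changes was called in 7 (10.8%, against 23.0% of all genes, and 1.19% of all genes without the block). Between fractions 60 were higher in the steady-state label with DMSO (92.3% against 85.5%) and 62 with rapamycin (95.4% against 77.6%).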

Other observations

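The 2 arrays labelled Taf5 that equalled no Taf4-labelled array carry different labels in fraction and treatment and were compared with nothing. After the same shift to equal S. pombe medians, the member genes had a median level of 9.41 (log2) on the array labelled Taf5 steady-state with DMSO, replicate 2. On the array labelled Taf5 newly synthesized with rapamycin, replicate 2, it was 8.30. The S. pombe probe sets with member names lay 0.21 above the S. pombe median on the first array and 0.34 below it (-0.34) on the second.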
